A study of Mus musculus with 21 samples.

Results

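The genes of the cytosolic ribosomal proteins were followed across 21 RNA sequencing libraries of B cells sorted from C57BL/6 mice aged 8 to 12 weeks. Members were all genes of the deposited count table whose symbol is Rpl or Rps followed by a number (with an optional a or x), together with Rplp0, Rplp1, Rplp2 and Rpsa. The rule uses names and no measured value. It found 77 of 23337 genes, 46 of the large and 31 of the small subunit, and it leaves out pseudogenes, the Rps6k kinases and fusion genes such as Fau. The cells came from the Peyer's patches (PP, immune follicles of the small bowel), the mesenteric lymph nodes (mLN) and the spleen. In each tissue the labels give 3 libraries of BCL2 HEL pos cells (922, 926 and 950), 3 of HEL pos cells (392, 399 and a pool) and 1 pooled library of HEL neg cells. The labels expand neither HEL nor BCL2, name no promoter for a transgene and do not say whether a numbered library is 1 mouse, so a p-value here measures spread from library to library, part of which may be technical.

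The cytosolic ribosome is built from a small subunit, which decodes the mRNA, and a large subunit, which joins amino acids, and its proteins are needed in nearly equal numbers. In mammals most mRNAs of ribosomal proteins begin with a run of pyrimidines that starts at a C, the 5′ terminal oligopyrimidine (TOP) tract, through which the kinase mTOR controls their translation together. B cells that meet antigen grow before they divide, and growth calls for new ribosomes, whose assembly in the nucleolus needs a further group of proteins, the ribosome biogenesis factors, many of them targets of the transcription factor Myc. Both groups of genes are described side by side here.

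The start sites of 5 members are shown for the tract that most of the family is known for, 3 with a tract at the RefSeq start and 2 without, the last 2 being the members that changed most often between tissues. Rpl15, with a tract, was also called between tissues, and a link of the tract to such changes was not tested. Each line runs from 30 bases before the annotated start to 20 bases from it (RefSeq, GRCm38.p6), and capitals mark the pyrimidines that run on without a break from the start base.
Rpl15: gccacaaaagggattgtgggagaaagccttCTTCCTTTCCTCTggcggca
Rplp2: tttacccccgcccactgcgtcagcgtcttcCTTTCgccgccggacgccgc
Rps21: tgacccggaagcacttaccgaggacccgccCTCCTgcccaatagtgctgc
Rps2: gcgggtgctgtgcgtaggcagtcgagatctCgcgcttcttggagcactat
Rplp0: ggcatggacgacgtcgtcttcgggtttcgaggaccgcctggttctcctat
They lie at chr14:18270967-18271016 (minus strand), chr7:141447621-141447670 (plus), chr2:180257349-180257398 (plus), chr17:24720033-24720082 (plus) and chr5:115559437-115559486 (plus). A C at the start base followed by 4 more pyrimidines was found in 13 of the 57 members with a promoter in the RefSeq table (22.8%), against 3.01% of 27025 genes. Such a run within 10 bases of the start was in 34 of 57 (59.6%), against 34.4% of all genes. The Rps2 line above holds one a few bases after its start. The sequence CCGGAAG or CTTCCGG, read on both strands from 250 bases before the start to 50 after it, was in 24 of 57 (42.1%), against 9.93% of all genes. TATAAA on the transcribed strand from 45 to 16 bases before the start was in 0 of 57, against 2.57%. An annotated start can lie a few bases from the one these cells use, so these counts describe the annotation.

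Library totals ran from 5475131 to 11340876 counts. Of the 77 members, Rpl26 had no count in any library, and Rpl30, Rpl34 and Rps27 had 513, 917 and 1008 counts over all 21 libraries, while the other 73 averaged at least 100 CPM (counts divided by the TMM-scaled library total and multiplied by 1000000). The coding sequence of Rps27 lies wholly in stretches that transcripts of other genes share (100% of its 50-base windows), and that of Rpl30, Rpl34 and Rpl26 to 83.1%, 72.2% and 87.3%. Such sharing is common in the family, with a median of 91.3% of windows per member and 30 members at 100%, so the counts of single members can include or lose reads of near-identical copies. Among the members with values below, Rpl4 and Rpl13a shared few windows (20.3% and 38.8%). Rps2, Rplp0, Rpl15 and Rpl3 shared 84.1%, 60.3%, 100% and 95.7%, and Rps19 and Rps12 81.1% and 100%, so this limit applies to them.

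Per kilobase of coding sequence members among the highest over all libraries were Rpl41, the smallest ribosomal protein, at 33452 CPM per kilobase, Rps29 at 11285, Rpl37a at 6523 and Rps28 at 5885. The lowest were Rps23 at 690 CPM per kilobase, followed by the thinly counted Rps27, Rpl34, Rpl30 and Rpl26. Rpl41 and Rps29 have coding sequences of only 75 and 168 bases, which 50-base reads cover almost only at their ends, so a level per coding length is a rough measure for them. Rplp0, the base of the large subunit's stalk, stood at 4289 CPM per kilobase and its partners Rplp1 and Rplp2 at 5634 and 933.

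The identity of the cells was checked first. All 8 B cell markers were counted in every library, and together they made 9439 to 21801 CPM. The 11 markers of T and NK cells summed to 104 to 377 CPM. The 15 markers of gut epithelium in the table summed to 16.8 to 158 CPM in PP BCL2 HEL pos cells, 240 to 1124 CPM in PP HEL pos cells and 1331 CPM in PP HEL neg cells, and to at most 37.4 CPM elsewhere. Transcripts of olfactory and vomeronasal receptors, which B cells are not known for, summed to 943 and 719 CPM in the pool and 399 of PP HEL pos cells, against 86.2 CPM in 392 and 50.4 to 535 CPM in the other libraries, and the PP HEL pos pool had the most genes detected (18206, against 12747 to 16283 in the others). Every PP HEL pos comparison holds these libraries, and the part of this in the results was not tested. Granulocyte markers reached 52.7 to 189 CPM in spleen HEL pos cells and 74.1 CPM in spleen HEL neg cells and at most 1.2 CPM elsewhere. Transcripts of 4 Y-linked genes summed to 92.3 to 168 CPM, except in HEL pos libraries 392 and 399, where they did not pass 0.9 CPM.

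The members together made up 7.92% of all counts in library 950, 12.7% in 922 and 12.0% in 926 of PP BCL2 HEL pos cells. In mLN BCL2 HEL pos cells they made up 15.4%, 16.0% and 13.7% in 922, 926 and 950, and in spleen BCL2 HEL pos cells 12.9%, 12.6% and 10.6%. In HEL pos cells the pool, 392 and 399 held 7.73%, 11.3% and 12.8% in PP, 9.96%, 12.7% and 12.0% in mLN, and 7.68%, 10.3% and 11.2% in spleen. The HEL neg pools held 8.00% in PP, 8.30% in mLN and 8.29% in spleen. The 95% Wilson intervals of these shares are at most 0.0546 percentage points wide and cover counting error only. In every group of 3 the lowest share was that of the pool or of library 950. In bulk RNA a smaller share of RNA from one class of gene cannot be told apart from fewer cells that express it strongly.

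**Figure D1:**
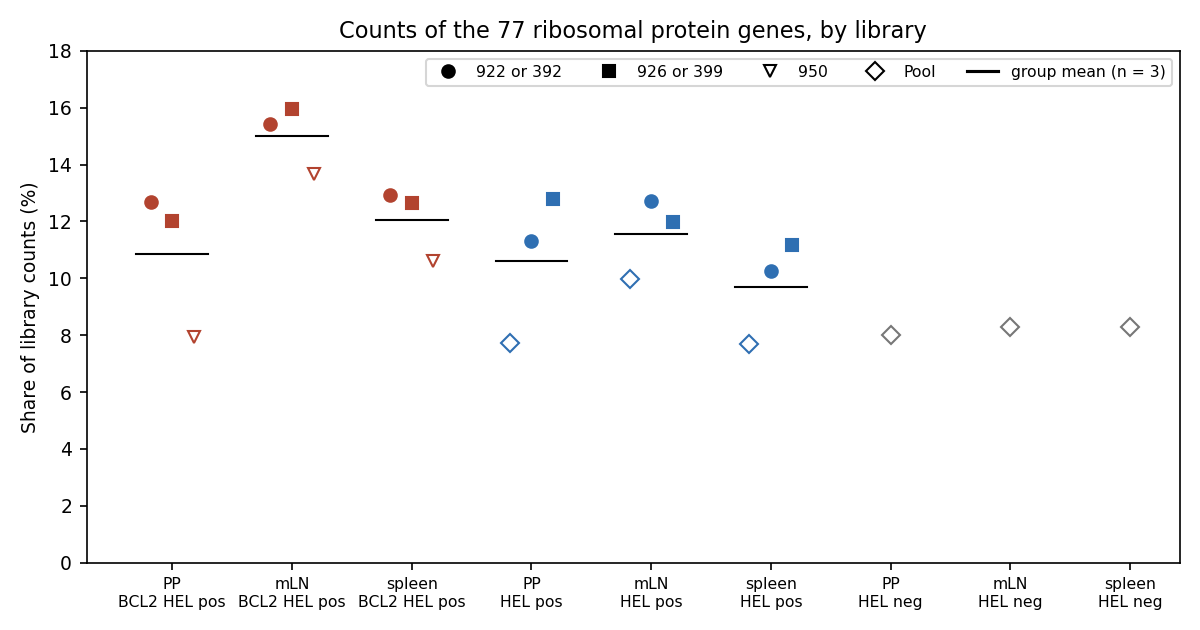
Share of all counts that fell on the 77 ribosomal protein genes (y axis, percent) in each library of the 9 groups (x axis); symbols give the library name, open symbols the pools and library 950, and lines the group mean. The open symbols lie lowest in every group of 3, and the 3 HEL neg pools lie between 8.00% and 8.30%.

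The low libraries were low for almost every member. Library 950 was the lowest of its 3 for 72 of 76 tested members in PP, 74 in mLN and 72 in spleen BCL2 HEL pos cells, while it was the lowest for 33.4%, 30.5% and 32.7% of all genes tested. The pool was the lowest for 75 members in PP, 76 in mLN and 74 in spleen HEL pos cells, against 32.4%, 35.8% and 33.9% of all genes. For 69 of 76 members it was the pool or library 950 in all 6 groups. The median member differed from the mean of the other libraries of its group by -0.87 (log2) in PP, -0.27 in mLN and -0.34 in spleen for library 950, and by -0.95, -0.48 and -0.70 for the pools. The median over all genes lay between 0.00 and 0.02 in these 6 libraries. Short genes outside the family went the same way by less in 5 of these 6 libraries. The 1069 other genes of at most 500 coding bases had medians of -0.31, -0.11 and -0.17 in the PP, mLN and spleen pools and of 0.03, -0.08 and -0.12 in library 950 of PP, mLN and spleen, while the 2954 genes of at least 2000 bases had medians of 0.12, 0.03 and 0.05 and of -0.03, 0.05 and 0.03. The part of this difference by length in the members' low values was not tested. The summed shares of the large and of the small subunit were each lowest in the same 6 libraries, and the lowest library of each group stayed the same when the share was taken of counts without the 100 most abundant other genes, and in longer or shorter members alone (split at the median of 456 coding bases).

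Rpl13a of the large subunit shows the pattern: it stood at 1892 CPM in library 950 of PP BCL2 HEL pos cells, against 3236 CPM in 922 and 2800 CPM in 926, and at 1277 CPM in the pool of PP HEL pos cells, against 2122 and 2162 CPM in 392 and 399. Rpl39, which lines the exit tunnel of the large subunit, varied most within groups and stood at 255 CPM in library 950 of PP BCL2 HEL pos cells, against 896 and 890 CPM in 922 and 926. Rps12 of the small subunit had 324 CPM there, against 1015 and 986 CPM in the others. The median SD of members within a group (log2) was 0.51 in PP BCL2 HEL pos and 0.56 in PP HEL pos cells, against 0.24 and 0.32 for all genes tested. In spleen it was 0.21 and 0.41, against 0.19 and 0.25. In mLN it was 0.17 and 0.28, against 0.19 and 0.20, so in mLN BCL2 HEL pos cells the members' median lay below that of all genes.

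Other measures were lowest in the same libraries. Counts on Rn45s, the precursor of ribosomal RNA, were lowest in the pool or library 950 in all 6 groups, with 8094 CPM in library 950 of PP BCL2 HEL pos cells, against 27078 and 29415 CPM in 922 and 926. The 8 host genes of small nucleolar RNAs, long transcripts of which several also begin with a TOP tract, and the 19 other known TOP mRNAs were lowest there in all 6 groups as well. Paralogs and fusion genes outside the rule were lowest there in 6 of 6 groups too. The summed translation factors and mitochondrial ribosomal protein genes were lowest there in 5 of 6 groups each. The summed ribosome biogenesis factors were lowest there in only 2 of 6 groups. Y-linked transcripts were high in the HEL pos pools and near 0 in 392 and 399, and among the BCL2 HEL pos cells they were lowest in library 950 of each tissue (127, 92.3 and 121 CPM in PP, mLN and spleen, against 125 to 161 CPM in 922 and 926). The part of any of these in the low values was not tested.

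**Figure D2:**
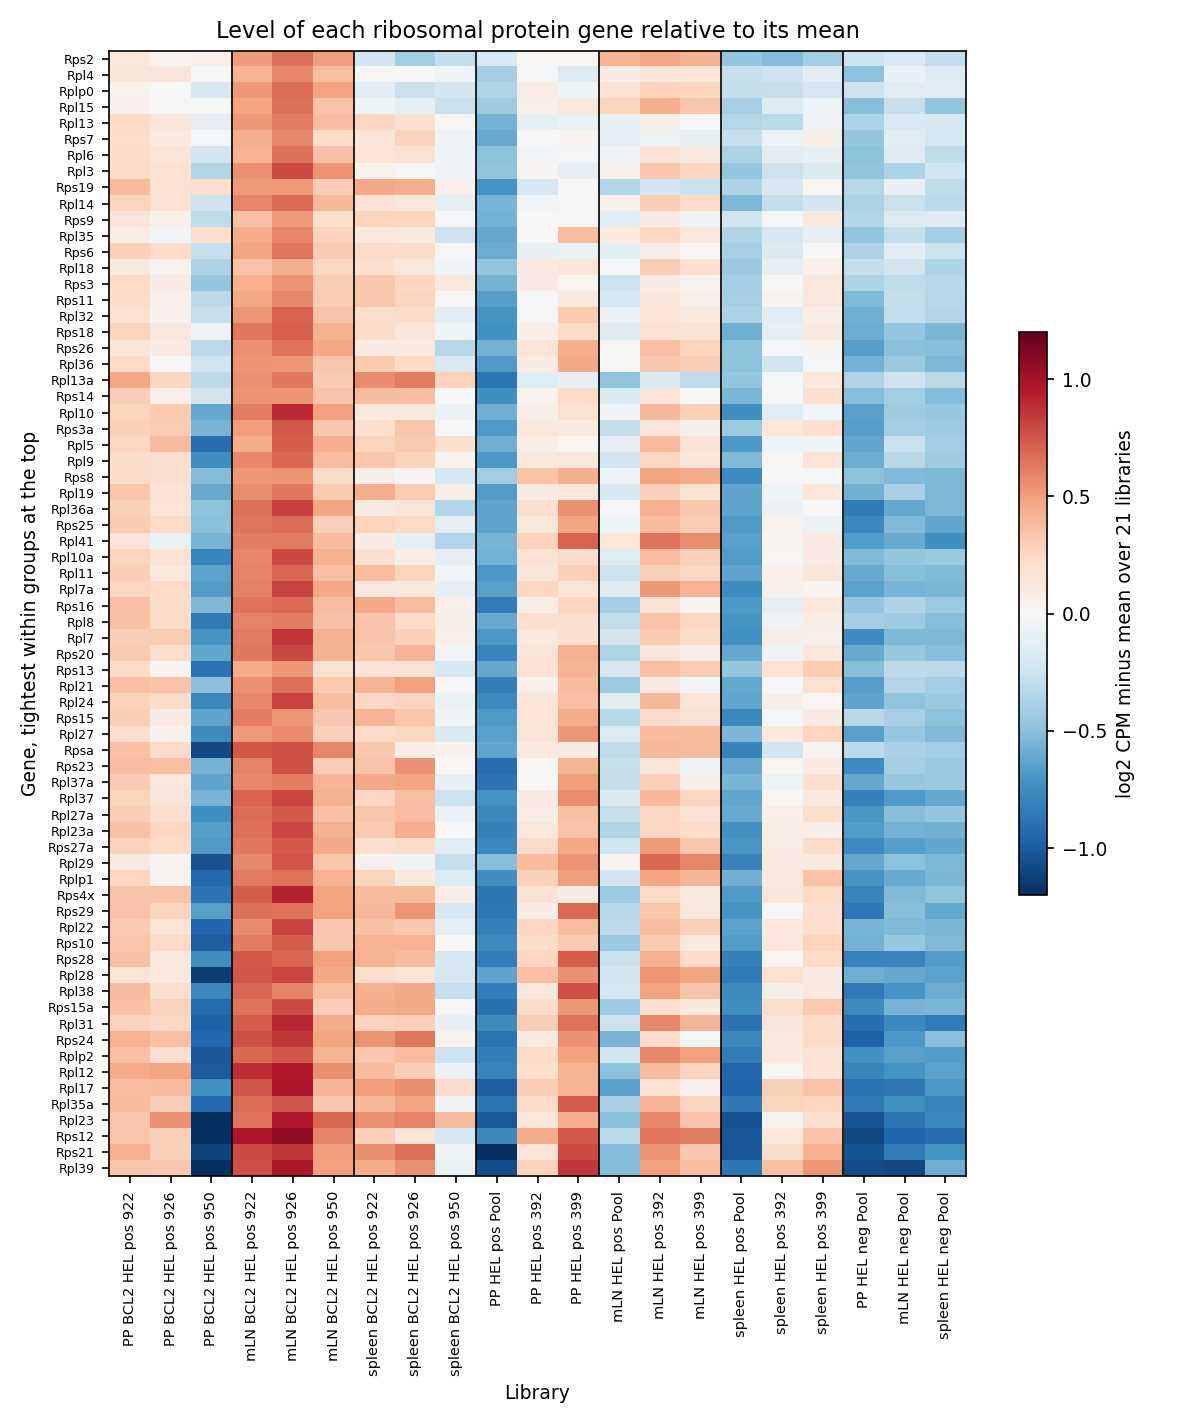
Level of 70 ribosomal protein genes (rows, from the smallest mean SD within groups at the top to the largest at the bottom) in 21 libraries (columns), as log2 CPM minus the gene's mean over all libraries; Rpl26, Rpl30, Rpl34 and Rps27, with few or no counts, and 3 others are left out. Library 950 of PP BCL2 HEL pos cells and the pools are blue columns, most deeply toward the bottom, and Rps2, Rpl4 and Rplp0 at the top show little difference within groups.

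The members were not alike in this. The mean SD within groups (log2) ran from 0.07 for Rps2, 0.09 for Rpl4 and 0.10 for Rplp0 to 0.59 for Rps12, 0.63 for Rps21 and 0.65 for Rpl39, against a median of 0.15 over 1812 other genes of at least 100 CPM. The 20 members that varied least had a median coding length of 597 bases and the 20 that varied most 387 bases. Across the 73 members counted at 100 CPM or more, Spearman's rho between this SD and coding length was -0.55, and across the 1812 other genes -0.11; all genes share the same libraries, so this is a description. The pool or library 950 was the lowest for Rps2 in only 3 of 6 groups.

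Cells of mLN, the nodes that drain the gut, were set against those of spleen. Rps2, a small-subunit protein at the mRNA entry, stood at 2727, 2821 and 2740 CPM in the pool, 392 and 399 of mLN HEL pos cells, against 1471, 1423 and 1534 CPM in spleen. All 3 mLN libraries lay above all 3 spleen libraries. It rose by 0.92 ± 0.11 (log2, SE, 3 libraries each; adjusted p = 5.11e-06). In the BCL2 HEL pos cells, which share no library with the HEL pos cells, Rps2 had 2902, 3232 and 2899 CPM in 922, 926 and 950 of mLN, against 1757, 1529 and 1662 CPM in spleen, a rise of 0.85 ± 0.11 (adjusted p = 5.82e-05). Rps2 lies on chromosome 17 from 24718116 to 24721929 on the plus strand (mm10).

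In HEL pos cells 6 of 76 members rose in mLN over spleen and 0 fell (7.89% of members, against 12.9% of all genes higher). Besides Rps2 they were Rplp0 (4715 ± 164 CPM in mLN and 3355 ± 109.5 CPM in spleen, SD, n = 3 each; 0.50 ± 0.13, adjusted p = 0.00612), Rpl15 (0.56 ± 0.15), Rpl14 (0.56 ± 0.16), Rpl3, which helps form the peptidyl transferase centre (0.53 ± 0.16), and Rpl4, which reaches into the exit tunnel (0.36 ± 0.12). All 6 are of at least the median coding length, and 5 belong to the large subunit. The median over 76 members was 0.28 and over all genes tested -0.01. Granulocyte markers were at most 0.26 CPM in mLN HEL pos and 52.7 to 189 CPM in spleen HEL pos cells, and their part was not tested. Members that varied with the library gave no call: Rps12 differed by 0.46 ± 0.39 (adjusted p = 0.439) and Rpl23 by 0.40 ± 0.38 (adjusted p = 0.487). The count was 3 without the spleen pool, without mLN 392 or without mLN 399, and 21 without the pools and library 950 of every tissue. Here and below, most member counts from alternative fits stand without the share of all genes called in them. A higher count need not be particular to the members.

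In BCL2 HEL pos cells 5 of 76 members rose in mLN over spleen and 0 fell (6.58%, against 5.77% of all genes higher and 4.23% lower): Rps2, Rplp0, Rpl15, Rpl3 and Rpl4, each also called in HEL pos cells. Rplp0 stood at 5719, 6376 and 5579 CPM in 922, 926 and 950 of mLN, against 3636, 3319 and 3428 CPM in spleen, with no overlap (0.75 ± 0.13, adjusted p = 0.000666). Rpl15 rose by 0.62 ± 0.15 (adjusted p = 0.00745) and Rpl3 by 0.62 ± 0.16 (adjusted p = 0.016). The median member stood at 0.35, and the summed share was higher in mLN than in spleen by 2.51, 3.31 and 3.05 percentage points in libraries 922, 926 and 950. With the library number as a block, which the check of the numbers allows here, 34 members rose. The share of all genes called in that fit is not given here. The count was 3 without spleen 926, 2 without mLN 926, 3 without spleen 950, and 25 without the pools and library 950 of every tissue.

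**Figure D3:**
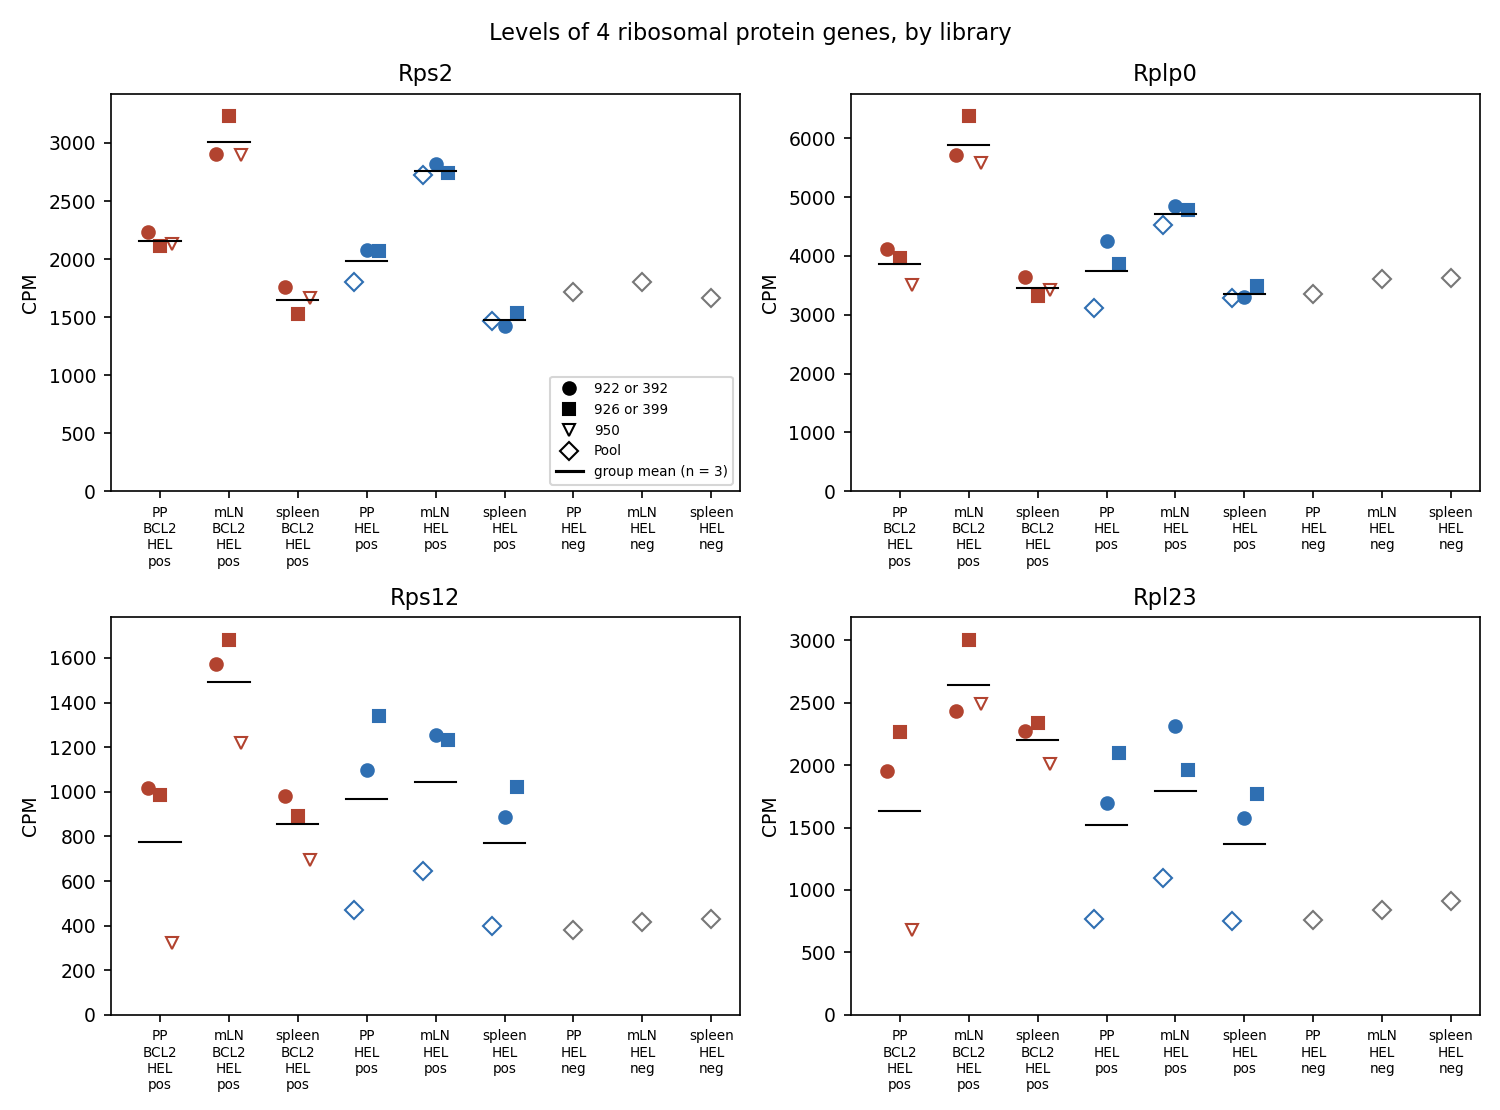
CPM (y axes, from 0) of Rps2, Rplp0, Rps12 and Rpl23 in every library of the 9 groups (x axes); lines are group means and open symbols the pools and library 950. Rps2 and Rplp0 are highest in mLN of BCL2 HEL pos and of HEL pos cells with little spread between libraries, whereas Rps12 and Rpl23 drop in the open symbols.

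Between PP and spleen few members were called. In HEL pos cells Rps2 rose, with 1799, 2078 and 2073 CPM in the pool, 392 and 399 of PP, against 1471, 1423 and 1534 CPM in spleen (0.43 ± 0.11, adjusted p = 0.0128). It was the only one of 76 members called (1.32%, against 7.94% of all genes higher and 7.43% lower); 0 were called without spleen 392, and with the library number as a block, which the check of the numbers allows here, there were 2. In BCL2 HEL pos cells 0 of 76 members were called, against 7.34% of all genes, 4.81% higher and 2.53% lower; 1 member passed an unadjusted p of 0.05, and DESeq2 called 1. Rps2 stood there at 2229, 2109 and 2128 CPM in PP, against 1757, 1529 and 1662 CPM in spleen, without overlap, at 0.36 ± 0.11 (adjusted p = 0.0578). The median member was 0.13 in HEL pos cells and -0.22 in BCL2 HEL pos cells, and the second value was -0.07 without the pools and library 950 of every tissue. Gut epithelial markers were higher in PP than in spleen libraries, at 240 to 1124 CPM against 5.17 to 27.9 CPM in HEL pos cells and at 16.8 to 158 CPM against 8.5 to 11.9 CPM in BCL2 HEL pos cells. Granulocyte markers were at most 1.16 CPM in PP HEL pos and 52.7 to 189 CPM in spleen HEL pos cells. The part of either in these comparisons was not tested.

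Ribosomal protein RNA made up 7.92% to 12.7% of counts in PP BCL2 HEL pos libraries and 13.7% to 16.0% in those of mLN, without overlap. By library number, PP minus mLN was -2.76, -3.94 and -5.74 percentage points in 922, 926 and 950. All 76 members had a negative fold change, with a median of -0.58 against 0.00 for all genes, and 45 passed an unadjusted p of 0.05. The share of all genes at that unadjusted threshold is not given here, so the 45 stand without a background. Only Rplp0 and Rps2 passed the adjusted threshold in the shared fit (2.63% of members, against 0.35% of all genes lower, 0.806% higher and 1.16% in either direction). Many more were called with the library number as a block or with no low-count filter, as given below under processing. The check of the numbers did not allow the block here. Its cutoff is a choice, and the same-numbered pairs were all positive (0.064 to 0.197), so pairing is not excluded. Rplp0 fell to 4115, 3969 and 3502 CPM in PP, against 5719, 6376 and 5579 CPM in mLN (-0.62 ± 0.13, adjusted p = 0.0182), and Rps2 fell by 0.49 on the log2 scale (adjusted p = 0.037). The count was 0 or 1 without any 1 of the 6 libraries (0 without mLN 922, mLN 926, PP 926 or PP 950, and 1 without PP 922 or mLN 950), and 5 without the pools and library 950 of every tissue. In HEL pos cells Rps2 alone was lower in PP than in mLN (-0.49 ± 0.11, adjusted p = 0.0112; 1.32% of members, against 3.52% of all genes lower, 5.34% higher and 8.86% in either direction), with 0 calls without mLN 392 and 3 without PP 392. Gut epithelial markers stood at 16.8 to 158 CPM in PP and 6.86 to 10.3 CPM in mLN BCL2 HEL pos cells, and at 240 to 1124 CPM in PP and 33.6 to 37.4 CPM in mLN HEL pos cells, and their part was not tested. The comparisons of PP, mLN and spleen use the same libraries of each tissue in turn.

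The order of tissues for Rps2 was thus mLN, PP and spleen in both kinds of cell. It averaged 3011 ± 192, 2155 ± 64.8 and 1649 ± 115 CPM in BCL2 HEL pos cells and 2763 ± 51.3, 1984 ± 159.8 and 1476 ± 55.6 CPM in HEL pos cells (SD, n = 3 each). Neighbours in that order did not overlap. The HEL neg pools gave 1804 CPM in mLN, 1713 CPM in PP and 1661 CPM in spleen, with 1 library each.

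BCL2 HEL pos cells were set against HEL pos cells of the same tissue. Y-linked transcripts stood at 92.3 to 161 CPM in all BCL2 HEL pos libraries and near 0 in 392 and 399, which are 2 of the 3 HEL pos libraries of each tissue, so these comparisons run across that difference, whose part was not tested. In mLN 5 of 76 members rose and 0 fell, among them the large-subunit proteins Rpl13a and Rpl13 and the small-subunit proteins Rps19 and Rps7 (6.58%, against 5.78% of all genes higher and 11.7% in either direction). Rpl13a stood at 3440, 3631 and 2915 CPM in 922, 926 and 950, against 1683, 2077 and 1893 CPM in the pool, 392 and 399, without overlap (0.81 ± 0.21, adjusted p = 0.015). Rps19, whose human gene is mutated in Diamond-Blackfan anaemia, had 2867, 2862 and 2485 CPM in BCL2 HEL pos and 1573, 1715 and 1670 CPM in HEL pos cells (0.71 ± 0.16, adjusted p = 0.00691). Rps7 and Rpl13 rose by 0.50 each. The median member was 0.44, and 74 of 76 fold changes were positive. The count was 1 or 2 without any 1 of 5 libraries (1 without the mLN pool, mLN 399 or BCL2 926, 2 without mLN 392 or BCL2 922), and 33 without the pools and library 950 of every tissue.

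In PP, Rps19 was the only member that rose (2406 ± 178 CPM in BCL2 HEL pos and 1660 ± 406 CPM in HEL pos cells, SD, n = 3 each; 0.52 ± 0.16, adjusted p = 0.0476; 1.32% of members, against 5.33% of all genes higher, 4.74% lower and 10.1% in either direction). It was not called without the PP pool, BCL2 922 or BCL2 926, each of which left 0 calls, nor without BCL2 950, where Rpl13a was called instead (0.70 ± 0.20). The median over members was 0.02. Without all HEL pos pools it was -0.23 and the only call was Rpl41, which fell (-0.67 ± 0.18, adjusted p = 0.0257). Gut epithelial markers stood at 16.8 to 158 CPM in PP BCL2 HEL pos and 240 to 1124 CPM in PP HEL pos cells, and their part was not tested. In spleen, where granulocyte markers were at most 0.57 CPM in BCL2 HEL pos and 52.7 to 189 CPM in HEL pos cells, Rps19 stood at 0.51 ± 0.16 (adjusted p = 0.0537), with 2746, 2726 and 2100 CPM in BCL2 HEL pos and 1556, 1758 and 2049 CPM in HEL pos cells. The only call in spleen was the thinly counted Rps27 at 10.9 ± 0.955 and 5.21 ± 0.560 CPM (1.08 ± 0.33, adjusted p = 0.0393; 1.32% of members, against 4.55% of all genes higher, 4.82% lower and 9.37% in either direction). There were 0 calls without the spleen pool, 392, BCL2 922 or BCL2 926, 2 without 399, and 6 without the pools and library 950 of every tissue, with a median of 0.33 in the full fit. Members with differences near 0 were also found: Rpl41 stood at 0.06, 0.04 and -0.38 and Rpl29 at 0.08, 0.06 and -0.42 in mLN, spleen and PP, and none of these 6 values passed the test.

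**Figure D4:**
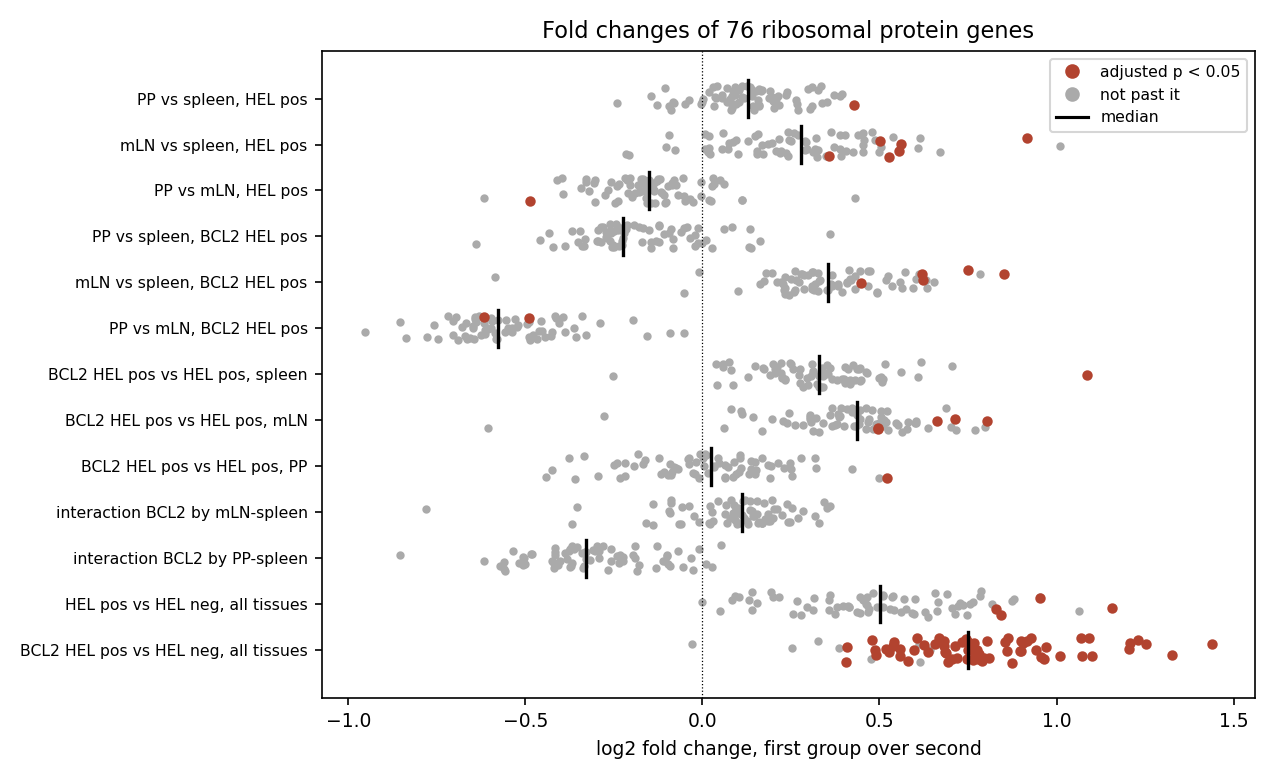
Log2 fold change, first group over second (x axis), of 76 ribosomal protein genes in 13 comparisons (y axis; points are spread vertically to be visible); red points passed an adjusted p of 0.05 and lines are medians. Calls are few in the comparisons between tissues, while 68 of 76 genes were called between BCL2 HEL pos and HEL neg cells.

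Whether the tissue differences depend on BCL2 was tested as an interaction. Neither the mLN minus spleen nor the PP minus spleen difference gave a call among the members with edgeR or with DESeq2 (0 of 76 each, and 0 at an unadjusted p under 0.05 with either tool), against 0.385% (0.219% higher, 0.166% lower) and 0.00876% of all genes. The smallest p for mLN was that of Rplp0 (0.25 ± 0.18, adjusted p = 0.768), followed by Rps7 and Rpl30, and for PP that of Rps27 (-0.85 ± 0.46, adjusted p = 0.571), followed by Rps15 and Rpl36. The median member stood at 0.11 for mLN and at -0.33 for PP.

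Against HEL neg cells, which have 1 pool per tissue, tissue was a covariate. In BCL2 HEL pos cells 68 of 76 members rose and 0 fell (89.5%, against 6.55% of all genes higher and 8.1% lower), with a median of 0.75. The fit took the same number in PP, mLN and spleen as independent libraries. The 9 BCL2 HEL pos libraries carry only the numbers 922, 926 and 950, so SEs and p-values here may be too small. No BCL2 HEL pos library is a pool and every HEL neg library is one, so pooling and the kind of cell cannot be told apart here, and in HEL pos cells the pools were the libraries with the lowest share. Gut epithelial markers stood at 16.8 to 158 CPM in PP BCL2 HEL pos cells and 1331 CPM in the PP HEL neg pool, and plasma cell markers at 329 to 556 CPM in BCL2 HEL pos and 515 to 939 CPM in HEL neg libraries, and their part was not tested. Rpl23, which faces the small subunit, stood at 677 to 3005 CPM with a median of 2270 CPM in the 9 BCL2 HEL pos libraries, against 757, 841 and 908 CPM in the PP, mLN and spleen HEL neg pools (1.33 ± 0.26, adjusted p = 0.00269). Rps12 rose by 1.25 ± 0.28, Rps21 by 1.23 ± 0.26 and Rpl5, which with Rpl11 can bind the p53 regulator Mdm2, by 0.69 ± 0.20. The phosphoprotein Rps6, a substrate of S6 kinase, rose by 0.49 ± 0.14. Rps2 and Rplp0, the members called most often between tissues, did not pass, at 0.33 ± 0.13 (adjusted p = 0.114) and 0.25 ± 0.14 (adjusted p = 0.252); nor did Rps9, Rps13, Rpsa, Rpl29 and the thinly counted Rpl30, and Rpl34 lay at -0.03 ± 0.29. The count was 27 without the mLN HEL neg pool and 72 without library 950 of every tissue, a fit added after the data were seen. Leaving out 1 library at a time gave 1000 to 1726 calls over all genes. The share of all genes called without library 950 of every tissue is not given here.

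For HEL pos cells the same comparison rested on the libraries taken, and the same limit of repeated library names across tissues applies to its SEs and p-values. Over HEL neg cells 4 of 76 members rose and 0 fell, Rps12, Rpl31 and Rpl41 among them (5.26%, against 3.14% of all genes higher, 5.29% lower and 8.43% in either direction). At an unadjusted p of 0.05, 48 members passed, and the share of all genes at that threshold is not given here. Rps12 had 471, 1096 and 1340 CPM in the pool, 392 and 399 of PP, 643, 1256 and 1233 CPM in mLN and 397, 887 and 1022 CPM in spleen, against 380, 417 and 428 CPM in the PP, mLN and spleen HEL neg pools (1.16 ± 0.32, adjusted p = 0.0394). The HEL pos pool of spleen lay below the HEL neg pool of spleen, and 392 and 399 lay above every HEL neg pool. The median member stood at 0.50 over all HEL pos libraries, at 0.68 with 60 calls without the HEL pos pools (392 and 399, with Y-linked transcripts near 0, against HEL neg pools at 115 to 156 CPM), and at 0.03 with 0 calls when HEL pos pools alone were set against HEL neg pools. The last fit held only 1 pool of each kind per tissue and had little power, so its 0 calls cannot be set against the 60. The shares of all genes called in these fits are not given here. Leaving out 1 library gave 34 calls without the PP HEL pos pool, 26 without the spleen HEL pos pool, 7 without the spleen HEL neg pool, 1 without PP 399, and 0 without the mLN or PP HEL neg pool, 392 of any tissue, or 399 of mLN or spleen. Over these fits the called members ran from 0 to 34 and the calls over all genes from 176 to 1574. Rps19, Rpl13a and Rpl13, called between BCL2 HEL pos and HEL pos cells of mLN, stood at -0.00 ± 0.15, 0.05 ± 0.17 and 0.08 ± 0.13. The pools of HEL neg cells are the only HEL neg libraries, so pooling and the lack of HEL cannot be told apart there.

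The genes whose products assemble the ribosome were read from the same fits. Of 54 ribosome biogenesis factors 47 rose and 0 fell in mLN over spleen HEL pos cells, with a median of 0.85, when 6 of 76 ribosomal protein genes rose and their median was 0.28. Nucleolin (Ncl), an abundant nucleolar protein, stood at 773, 859 and 968 CPM in mLN, against 354, 365 and 303 CPM in spleen (1.36 ± 0.15, adjusted p = 1.3e-06), and nucleophosmin (Npm1), another, rose by 1.17 ± 0.14. Myc itself stood at 286, 343 and 407 CPM in mLN, against 144, 112 and 95 CPM in spleen (1.57 ± 0.18). In PP over spleen 32 factors rose in HEL pos and 33 in BCL2 HEL pos cells (medians 0.55 and 0.59, with 0 lower in both), where the ribosomal protein genes had medians of 0.13 and -0.22. In mLN over spleen of BCL2 HEL pos cells 22 rose (0.47). The background shares of called genes are those given above, and B cell markers fell in the same comparisons (7 of 8 in mLN and in PP over spleen HEL pos cells, medians -1.13 and -0.63); their part was not tested.

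In BCL2 HEL pos over HEL pos cells of mLN the medians of the lists had opposite signs. Of the biogenesis factors 30 of 54 fell and 0 rose (median -0.50, against 5.9% of all genes lower). Of the ribosomal protein genes 5 of 76 rose and 0 fell (median 0.44), a share of 6.58% that is close to the 5.78% of all genes higher and that dropped to 1 or 2 genes without single libraries, as given above. Ncl stood at 495, 574 and 441 CPM in BCL2 HEL pos and 773, 859 and 968 CPM in HEL pos cells (-0.80 ± 0.15, adjusted p = 0.00146), and Myc at 148, 155 and 126 CPM and 286, 343 and 407 CPM (-1.29 ± 0.18, adjusted p = 0.00012), neither with overlap. B cell markers moved beside them, with 4 of 8 higher and 0 lower (median 0.44), and their part was not tested. In spleen 5 factors fell (median -0.20, against 4.82% of all genes lower) and in PP 2 (median -0.17, against 4.74%). Without the pools and library 950 of every tissue the mLN counts were 19 factors lower and 33 ribosomal protein genes higher, and the factor count was 18 without HEL pos 392, 17 without 399 and 16 without BCL2 950, with 0 higher each time. The fit without the pools and library 950 was chosen after the data were seen and leaves out the libraries where most members were lowest. Its share of all genes called is not given here. Against HEL neg cells the BCL2 HEL pos cells gave 0 of 54 factors in either direction (edgeR; median 0.09; DESeq2 also 0), beside the 68 ribosomal protein genes.

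**Figure D5:**
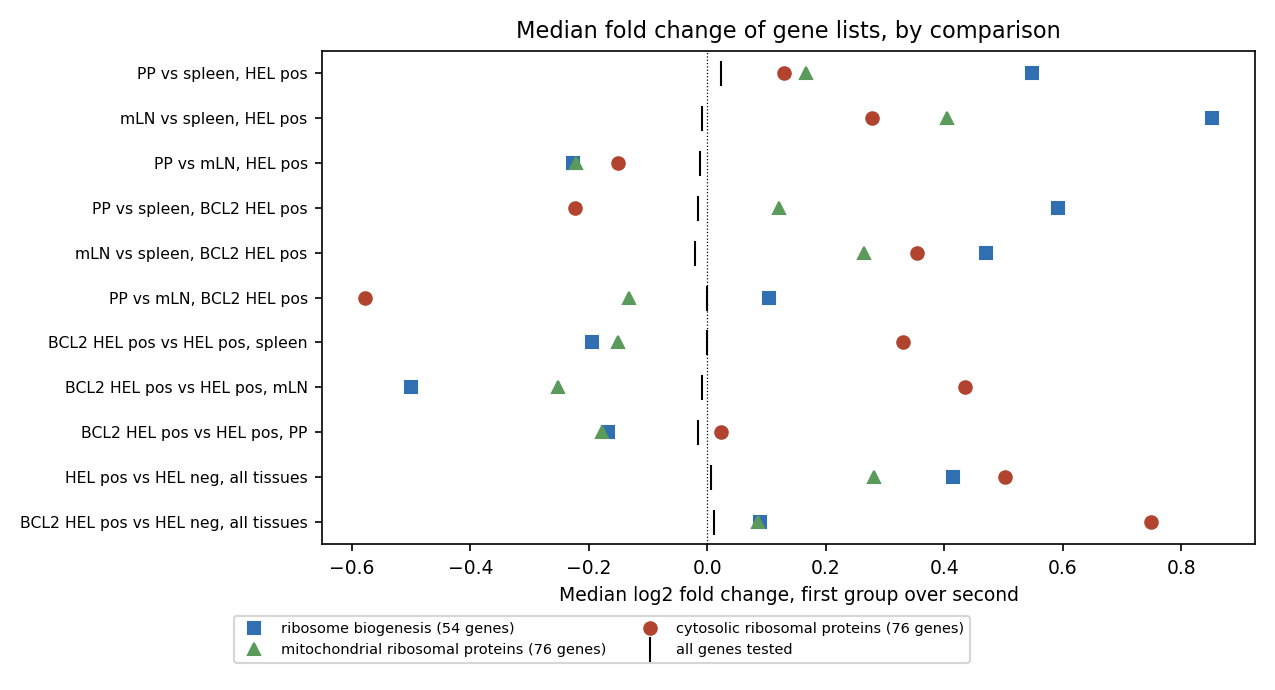
Median log2 fold change, first group over second (x axis), of 76 cytosolic ribosomal protein genes, 54 ribosome biogenesis factors, 76 mitochondrial ribosomal protein genes and all genes tested in 11 comparisons (y axis). In BCL2 HEL pos against HEL pos cells of mLN the ribosomal protein genes lie at 0.44 and the biogenesis factors at -0.50.

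Other genes of translation were read from the same fits. Of 35 translation factors 24 rose and 1 fell in mLN over spleen HEL pos cells (median 0.52), and 2 rose and 10 fell in BCL2 HEL pos over HEL pos cells of mLN (median -0.21). Of all genes, 12.9% were higher and 11.5% lower in the first comparison, and 5.78% higher and 5.9% lower in the second. The elongation factor Eef1a1, itself a TOP mRNA, rose by 0.49 ± 0.14 (adjusted p = 0.014) in mLN over spleen HEL pos and by 0.50 ± 0.14 (adjusted p = 0.029) in BCL2 HEL pos cells. Fau, a ubiquitin-like fusion that yields the small-subunit protein eS30, rose in BCL2 HEL pos over HEL pos cells of mLN (0.67 ± 0.19, adjusted p = 0.025). Of 76 mitochondrial ribosomal protein genes 29 rose in mLN over spleen HEL pos cells (median 0.40, against 12.9% of all genes higher). In BCL2 HEL pos over HEL pos cells of mLN 7 of 76 fell (median -0.25), not far from the 5.9% of all genes lower. All 8 host genes of small nucleolar RNAs rose in BCL2 HEL pos over HEL neg cells (median 0.97, against 6.55% of all genes higher). In HEL pos over HEL neg cells 5 of 8 rose (median 0.87, against 3.14% of all genes higher), and 0 with pools alone, a fit of little power.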

How the data were processed

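RNA of 21 libraries of sorted B cells was sequenced with single-end reads of 50 bases, per the labels, in which TruSeq and Nextera XT both stand as the kit. The authors deposited raw counts, whole numbers for each gene. The submitters' processing notes name STAR, HTSeq, DESeq2 and the build mm10, with no role or version. Counts of reads that fit several copies depend on settings not given in the sources used here, and strand was not used.

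After filterByExpr and TMM scaling, edgeR 4.0.16 in R 4.3.3 ran its quasi-likelihood test (two-sided). P-values were adjusted by Benjamini-Hochberg over every tested gene, and genes under 0.05 were called. The 6 groups of 3 libraries shared a fit (11419 genes; residual degrees of freedom 12), which gave the comparisons of tissues and of BCL2. For HEL neg cells each fit held 12 libraries and a tissue term (11406 genes for HEL pos, 10987 for BCL2 HEL pos, 8 degrees of freedom each). Fold changes are first group over second. Levels are CPM of TMM-scaled totals, while library shares and summed marker levels use plain totals. A floor of 3 counts is 0.265 to 0.548 CPM per library, for counting error only. Coding lengths, shared windows and coordinates came from GENCODE M21, of the same build.

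Library numbers were taken to pair samples only where every same-numbered pair correlated above 0.1 over all genes in deviations from the group means. This cutoff is a choice. It was met for PP and spleen HEL pos cells (0.104 to 0.243) and for mLN and spleen BCL2 HEL pos cells (0.101 to 0.184). Same-numbered pairs were positive elsewhere too. They ran from 0.061 to 0.279 (PP and mLN) and 0.020 to 0.307 (mLN and spleen) in HEL pos cells. In BCL2 HEL pos cells they ran from 0.064 to 0.197 (PP and mLN) and 0.053 to 0.143 (PP and spleen). Pairing there is thus not excluded, and counts with the block are given below. Alternatives included DESeq2 1.42.0, its size factors in edgeR, scaling without the members, no low-count filter, the library number as a block, only the libraries compared, each library left out, and fits without the HEL pos pools or without PP HEL pos 399 and the pool. Fits without the pools and library 950, and with pools only, were added after the data were seen. The test was checked on simulated data. Named genes were up to 5 called members with the highest and 5 with the lowest fold change per comparison, 3 with the smallest p per interaction, 5 at each end of the levels, and fixed members and companions, some left out for length. Rpl23, Rps12, Rps21, Rpl39, Rpl29, Rpsa, Rps9 and Rps13 were in part chosen after their values were seen. The members and lists were chosen with earlier results of these data known. Some members count in every total but are not reported by name here.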

Additional observations from a re-analysis of the deposited data

How the results depend on the processing

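No result under the alternatives run changed its direction while called, except that in PP, BCL2 HEL pos vs HEL pos, the single call was Rps19 higher, and without the HEL pos pools Rpl41 lower. PP vs spleen, BCL2 HEL pos, had 0 calls in the main fit and calls in both directions with the block (1 higher and 3 lower). The lowest library of all 6 groups was the pool or 950 in each of 3 other forms of the share. Counts of called members moved widely, and the cause was not tested. For most alternatives the share of all genes called is not given here, so a higher count need not be particular to the members. With DESeq2 the counts were 5 (PP vs mLN, BCL2 HEL pos), 4 (PP vs mLN, HEL pos), 1 (PP vs spleen, BCL2 HEL pos), 8, 5 and 2 (BCL2 HEL pos vs HEL pos in mLN, spleen and PP) and 19 (HEL pos vs HEL neg). DESeq2 size factors in edgeR gave 2 for HEL pos vs HEL neg and 1 for PP vs spleen, BCL2 HEL pos, and scaling without the members gave 1 there. With no low-count filter they were 18 and 22 (mLN vs spleen, HEL pos and BCL2 HEL pos), 0 (PP vs spleen, HEL pos), 47 (PP vs mLN, BCL2 HEL pos), 34, 9 and 3 (BCL2 HEL pos vs HEL pos in mLN, spleen and PP) and 38 (HEL pos vs HEL neg). With only the libraries compared they were 32 (mLN vs spleen, BCL2 HEL pos), 33, 4 and 0 (BCL2 HEL pos vs HEL pos in mLN, spleen and PP) and 0 (PP vs spleen and PP vs mLN, HEL pos, and PP vs mLN, BCL2 HEL pos). With the library number as a replicate block they were 30, 6 and 2 (mLN vs spleen, PP vs mLN and PP vs spleen, HEL pos), 34, 66 and 4 (the same in BCL2 HEL pos, the last with 1 higher and 3 lower) and 0 (HEL pos vs HEL neg); 17 of 18 libraries correlated best with their own number, a hint from the data. Without the HEL pos pools they were 60 (HEL pos vs HEL neg) and 0 (BCL2 HEL pos vs HEL pos in spleen, and PP vs mLN, HEL pos), and with pools only 0. Without PP HEL pos 399 and the pool they were 16 (HEL pos vs HEL neg) and 0 (PP vs spleen and PP vs mLN, HEL pos, and BCL2 HEL pos vs HEL pos in PP). Without the pools and library 950 of every tissue, a choice made after seeing the data, they were 21 and 25 (mLN vs spleen, HEL pos and BCL2 HEL pos), 2 (PP vs spleen, HEL pos), 5 (PP vs mLN, BCL2 HEL pos), and 33 and 6 (BCL2 HEL pos vs HEL pos in mLN and spleen).

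Leaving out 1 library at a time gave 0 to 1 (PP vs spleen, HEL pos), 3 to 6 and 2 to 5 (mLN vs spleen, HEL pos and BCL2 HEL pos), 0 to 3 and 0 to 1 (PP vs mLN), 1 to 4, 0 to 2 and 0 to 1 (BCL2 HEL pos vs HEL pos in mLN, spleen and PP), 0 to 34 (HEL pos vs HEL neg) and 27 to 72 (BCL2 HEL pos vs HEL neg). Of all genes, these fits called 1307 to 2135 (PP vs spleen, HEL pos). In mLN vs spleen they called 2016 to 2529 (HEL pos) and 561 to 825 (BCL2 HEL pos), and in PP vs mLN 374 to 1512 and 25 to 98. For BCL2 HEL pos vs HEL pos they called 654 to 1193, 564 to 911 and 638 to 1638 in mLN, spleen and PP. For HEL pos and BCL2 HEL pos vs HEL neg they called 176 to 1574 and 1000 to 1726. Over all genes DESeq2 called 146 and 58 for the mLN and PP interactions, against 44 and 1 with edgeR, and 245 against 132 for PP vs mLN, BCL2 HEL pos. Counts limit what can be said of Rpl26, Rpl30, Rpl34 and Rps27, and why they are so low was not tested. The other limits are 3 libraries a group, 1 HEL neg pool a tissue, and counts of near-identical copies.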
